A study of Mus musculus with 4 samples.

Results

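Matrix proteases and their inhibitors were read in Snai1 knockout (KO) and control mouse cells as the genes that the array's annotation names Mmp plus a number, Adamts plus a number, or Timp1 to Timp4. The rule took 37 of the 18193 genes with a probe set of their own, 18 Mmp genes, 15 Adamts genes and 4 Timp genes, and these held 70 of 34945 such probe sets. It used names only and no measured value. Mmp15, Mmp21, Mmp25, Mmp27, Mmp28, Adamts2, Adamts13, Adamts14 and Adamts17 were not analysed here.

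The study differentiated mouse embryonic stem cells in culture and in host animals, with 1 Affymetrix array for each of 4 groups. KO embryoid bodies and control embryoid bodies, whose genotype the labels write as F/F, were formed in hanging drops, moved to suspension and collected at day 5. KO teratomas and control teratomas were the tumours present at week 6 after cells of either genotype had been placed under the skin of the hind limbs of male nude mice aged 6 weeks. Nude mice lack a thymus but keep B cells and myeloid cells, and host vessels and stroma grow into such tumours. The number of clones behind each genotype, and whether tumours were pooled, are not stated in the labels. RNA came from spin columns for embryoid bodies and from Trizol for teratomas, and 250 ng of each was amplified into labelled RNA, so the RNA method goes with the setting and cannot be told apart from it.

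Matrix metalloproteinases (MMPs) are zinc enzymes, secreted or held at the cell surface, that are made as inactive precursors and cut collagens, proteoglycans and other matrix proteins. ADAMTS enzymes are secreted relatives with thrombospondin repeats; several cut versican and aggrecan, others trim procollagens or help to build microfibrils. Tissue inhibitors of metalloproteinases (TIMPs) bind the active site of MMPs, and TIMP3 stays in the matrix and also inhibits ADAMTS enzymes. Snai1 encodes a zinc finger repressor that binds the E-box CAGGTG, and its activity in cultured cells has been linked to invasion through matrix.

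Levels are the authors' deposited log2 signals. Where a gene had several probe sets, its brightest on average was used, and levels of different genes are not compared because probes differ in brightness. A value under an array's median over all probe sets, 4.73 in KO embryoid bodies, 4.71 in control embryoid bodies, 5.04 in the KO teratoma array and 5.08 in the control teratoma array, was treated as below the floor. A difference with 1 array below its floor was measured to that floor and is a bound, written "at least". Differences of 2-fold or more were counted. Because a group is a single array, the spread between cultures or tumours is unknown, no test was possible, and each difference compares arrays, not conditions. The standard deviation (SD) between probe sets of the same gene was 0.29 log2 units for the KO minus control difference in embryoid bodies (4977 genes) and 0.28 in teratomas (4661 genes), which leaves out culture, tumour and array.

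The library labels were checked on Snai1, whose probe set read 3.45 in KO embryoid bodies, 4.78 in control embryoid bodies, 3.44 in the KO teratomas and 3.59 in the control teratomas. It passed the floor in control embryoid bodies alone, so it could not check the teratoma labels, and whether its probes lie in the deleted part is not given. Its relative Snai2 read 9.07 in KO and 10.59 in control embryoid bodies, and 7.15 in KO and 8.43 in control teratomas. The gap between 3' and 5' probe sets of Gapdh was 0.40 and 0.65 log2 units in KO and control teratomas, against 0.10 and 0.17 in KO and control embryoid bodies. All 9 markers of embryoid bodies read passed the floor in KO and in control embryoid bodies (summed linear signal 7201 and 4607). All 12 teratoma markers passed it in KO and in control teratomas (10162 and 8587). Passing the floor did not separate the tissues. Of the embryoid body markers, 6 passed in KO and 7 in control teratomas (965 and 1299). Of the teratoma markers, 6 passed in KO and 7 in control embryoid bodies (963 and 780). Both summed signals were higher in the labelled tissue. Single markers could go the other way, as Col2a1 did (8.35 in KO embryoid bodies, 7.01 in KO teratomas). T, a mesoderm marker, was not among the genes read.

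Of the 37 genes, 22 passed the floor in KO embryoid bodies, 23 in control embryoid bodies, 23 in KO teratomas and 22 in control teratomas. A set of 17 genes (45.9%) passed it on all 4 arrays, against 57.4% of all genes, and 9 genes (24.3%) passed it on none, against 26.9%. The interstitial collagenases were among these 9: Mmp1a, Mmp1b, Mmp8 and Mmp13 lay between 2.81 and 3.73 on all 4 arrays. The others were Mmp10, Mmp19, Mmp20, Adamts8 and Adamts19. The expressed set held the gelatinase Mmp2, the membrane-type enzymes Mmp14, Mmp17 and Mmp24, Mmp11 and Mmp23, the proteoglycan-cutting Adamts1, Adamts4, Adamts9 and Adamts15, the procollagen and VEGF-C processing enzyme Adamts3, Adamts10, Adamts12, and all 4 inhibitors.

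**Figure D1:**
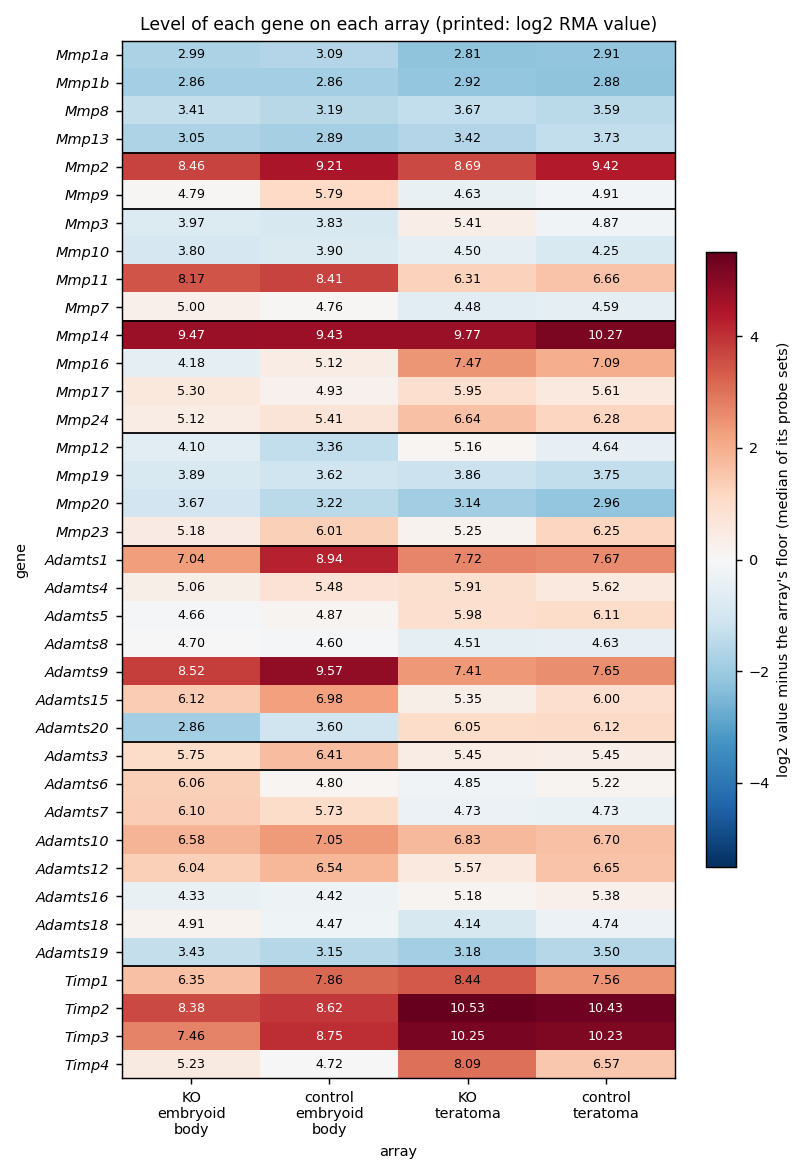
Deposited log2 signal of the 37 genes on the 4 arrays, KO left of control in each setting, with the colour giving the distance from that array's floor and horizontal lines separating the roles. The collagenases lie below the floor in every column, and all 4 Timp genes are above it in every column.

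Of the 9 genes below the floor on every array, 6 belonged to a single run of neighbouring genes. In the RefSeq annotation of GRCm38.p6, 10 Mmp genes followed each other on chromosome 9, from Mmp13 through Mmp12, Mmp1b, Mmp3, Mmp1a, Mmp10, Mmp8, Mmp27 and Mmp20 to Mmp7, and 9 of them were read here. These are tandem duplicates, so their sequences are not independent, and their probes may not be either. Mmp1a and Mmp1b were read by separate probe sets, and whether their probes match both genes was not examined. In this run, 6 of the 9 genes were below the floor on all 4 arrays. The exceptions were near the floor: Mmp3 (stromelysin 1) at 5.41 in KO teratomas, against 4.87 in control teratomas, Mmp12 (macrophage elastase) at 5.16 in KO teratomas, against 4.64 in control teratomas, and Mmp7 (matrilysin) at 5.00 in KO and 4.76 in control embryoid bodies.

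RefSeq promoters, taken as 250 bases before to 50 bases after a gene's start, were given for 23 of the 37 genes (26 promoters). They were searched on both strands for an AP-1 site (TGACTCA or TGAGTCA), for a TATA box (TATAAA or TTTATA) and for the E-box (CAGGTG or CACCTG). The AP-1 and TATA motifs were chosen after the genes' levels had been seen. On the chromosome 9 run, 7 of 11 promoters had an AP-1 match (63.6%) and 9 of 11 a TATA match (81.8%), against 5.20% and 13.6% of all 32851 promoters. Mmp12 and Mmp7 each had a second promoter in the table, with neither motif. The other 14 genes had 0 AP-1 matches and 1 TATA match, in Adamts1. The median number of CpG pairs was 1 in the chromosome 9 promoters, 22 in the promoters of the other genes and 7 over all promoters. The 7 windows shown were chosen because their promoters hold both an AP-1 and a TATA match. The promoters of Mmp8 and Mmp20, in the same run, had no AP-1 match. The windows run from 110 bases before the start to base 20, 5′ to 3′ on the gene's strand, with the AP-1, TATA and E-box matches in capitals. They lie at chr9:7272404-7272533 (+) for Mmp13, chr9:7347264-7347393 (+) for Mmp12, chr9:7388007-7388136 (-) for Mmp1b, chr9:7445712-7445841 (+) for Mmp3, chr9:7464031-7464160 (+) for Mmp1a, chr9:7502232-7502361 (+) for Mmp10 and chr9:7691980-7692109 (+) for Mmp7.
Mmp13: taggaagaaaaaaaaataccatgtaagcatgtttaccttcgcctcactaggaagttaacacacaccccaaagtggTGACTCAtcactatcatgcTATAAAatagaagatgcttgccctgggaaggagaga
Mmp12: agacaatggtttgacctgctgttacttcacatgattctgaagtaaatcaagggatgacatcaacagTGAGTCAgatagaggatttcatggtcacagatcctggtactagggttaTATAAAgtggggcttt
Mmp1b: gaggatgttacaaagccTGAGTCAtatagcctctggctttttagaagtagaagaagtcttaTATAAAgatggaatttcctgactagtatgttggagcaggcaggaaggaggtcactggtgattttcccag
Mmp3: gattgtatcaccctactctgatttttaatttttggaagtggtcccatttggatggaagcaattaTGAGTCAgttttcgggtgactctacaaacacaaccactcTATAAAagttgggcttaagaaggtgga
Mmp1a: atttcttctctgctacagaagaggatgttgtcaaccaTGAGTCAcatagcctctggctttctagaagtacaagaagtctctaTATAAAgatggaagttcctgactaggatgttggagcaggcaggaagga
Mmp10: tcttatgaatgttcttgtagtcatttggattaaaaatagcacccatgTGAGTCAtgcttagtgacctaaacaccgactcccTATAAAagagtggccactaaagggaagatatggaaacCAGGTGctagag
Mmp7: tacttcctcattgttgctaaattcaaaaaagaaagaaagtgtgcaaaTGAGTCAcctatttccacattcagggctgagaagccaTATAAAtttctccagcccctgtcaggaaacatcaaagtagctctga
In each of the 7 windows a TATA match followed the AP-1 match, by 19 to 48 bases counted from first base to first base. In Mmp12 the TATA match lay 4 bases past the annotated start. A match is a description of letters and says nothing of what binds there.

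**Figure D2:**
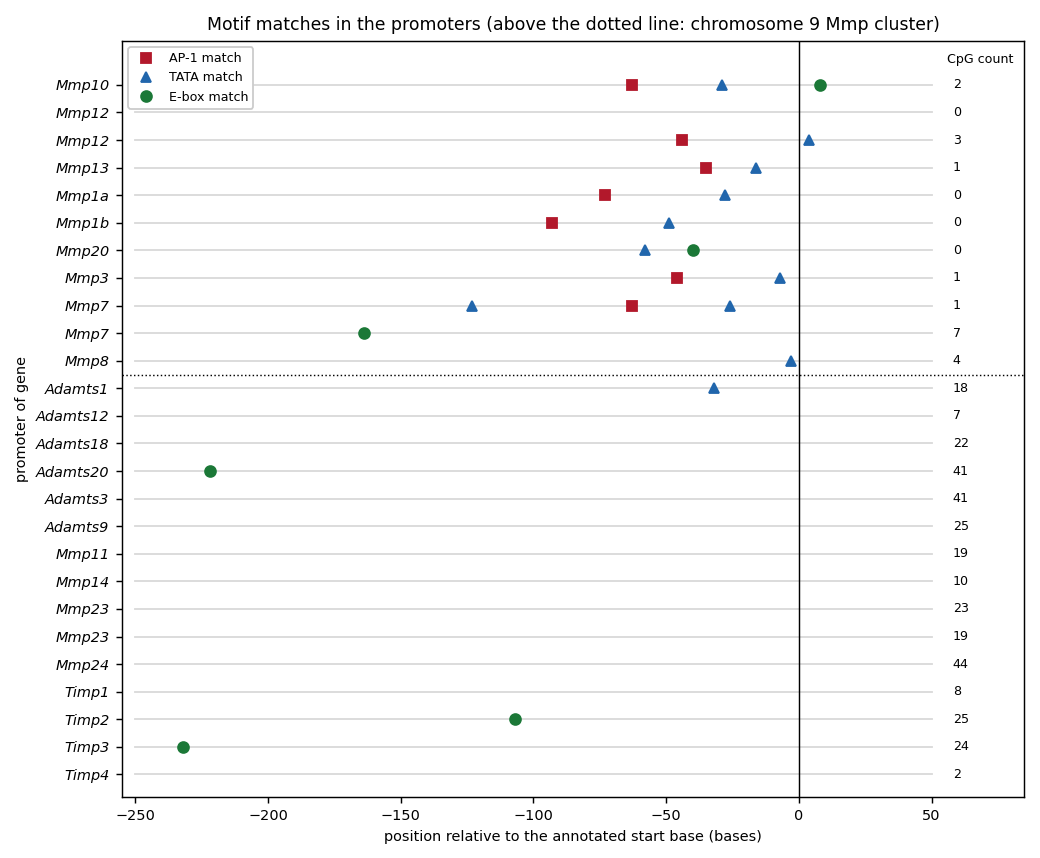
Positions of E-box, AP-1 and TATA matches relative to the start base in the promoters of the 23 genes with a RefSeq promoter, with the number of CpG pairs at the right. The chromosome 9 genes, above the dotted line, carry the AP-1 matches and few CpG pairs.

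In day 5 embryoid bodies, the question the design poses is what loss of Snai1 changes while the cells differentiate in culture. Lower levels in KO embryoid bodies were found for 2 inhibitors, Timp1 and Timp3, and for 2 proteoglycan-cutting enzymes, Adamts1 and Adamts9. Adamts6 was higher. In all, 24 of the 37 genes were measured on at least 1 of the 2 arrays. Of these, 4 were lower by 2-fold or more (16.7%), against 3.98% of all genes, and 1 was higher (4.17%), against 2.18%. The median difference was -0.41 over the 24 genes and 0.03 over all 12282 genes measured, with 17 of the 24 below 0. In bulk RNA, fewer cells of a type and less RNA per cell cannot be told apart.

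Among the inhibitors, Timp1, a soluble inhibitor that acts poorly on membrane-type MMPs, read 6.35 in KO embryoid bodies, against 7.86 in control embryoid bodies, a difference of -1.51 (2.85-fold lower). Timp3, the inhibitor bound to matrix, read 7.46 in KO embryoid bodies, against 8.75 in control embryoid bodies (-1.30, 2.46-fold lower). Of its other probe sets, a pair gave -1.25 and -1.05 and the last was below the floor on both arrays, so 3 of 4 Timp3 probe sets were past 2-fold. Timp2, which both inhibits MMPs and takes part in the activation of proMMP2 by MMP14, read 8.38 in KO and 8.62 in control embryoid bodies (-0.24). Its other probe sets above the floor on both arrays gave -0.06, -0.24 and -0.45. The mean of its 6 probe sets gave 0.05, the opposite sign. That mean includes a probe set at 5.42 in KO embryoid bodies and 4.11, below the floor, in control embryoid bodies. Timp4, known best from heart and brain, read 5.23 in KO embryoid bodies, against 4.72, just above the floor, in control embryoid bodies (0.51). The 4 inhibitors did not share a direction: the median of their differences was -0.77, with 2 lower past 2-fold and Timp4 above 0.

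Adamts1, which cuts versican and aggrecan, showed the greatest difference of the 37 genes in embryoid bodies. It read 7.04 in KO and 8.94 in control embryoid bodies (-1.90, 3.74-fold lower). Adamts9, a versican-cutting enzyme that mouse embryos need, read 8.52 in KO and 9.57 in control embryoid bodies (-1.04, 2.06-fold lower). Its other probe sets gave 0.33 and -0.45, so the Adamts9 call rests on 1 probe set. Adamts15 read 6.12 in KO and 6.98 in control embryoid bodies (-0.86), and Adamts4, an aggrecanase, read 5.06 and 5.48 (-0.43). Adamts5, the main aggrecanase of mouse cartilage, was near the floor at 4.66 in KO and 4.87 in control embryoid bodies. The median over the 5 proteoglycan-cutting enzymes measured was -0.86.

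The remaining ADAMTS genes did not share a direction. Adamts6, which acts in heart development in mice and shares its domain layout with Adamts10, read 6.06 in KO embryoid bodies, against 4.80 in control embryoid bodies (1.26, 2.39-fold higher). A further Adamts6 probe set was below the floor on all 4 arrays, and with the mean of both the control value was below the floor too, which left a bound of at least 0.08. Adamts10, tied to fibrillin microfibrils, read 6.58 in KO and 7.05 in control embryoid bodies (-0.47). Adamts7 and Adamts12, both reported to cut cartilage oligomeric matrix protein, went opposite ways, with Adamts7 at 6.10 in KO and 5.73 in control embryoid bodies (0.37) and Adamts12 at 6.04 in KO and 6.54 in control embryoid bodies (-0.50). Adamts3 read 5.75 in KO and 6.41 in control embryoid bodies (-0.66). Adamts18 was near the floor, at 4.91 in KO and 4.47 in control embryoid bodies, and Adamts20 was below it in both. Adamts16 was below the floor in both with the probe set used. Its other probe set read 5.13 in KO and 5.23 in control embryoid bodies, above both floors (-0.10).

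No Mmp gene reached 2-fold in embryoid bodies, with 9 of 18 measured. Mmp9, gelatinase B, came closest, reading 4.79 in KO embryoid bodies, against 5.79 in control embryoid bodies (-0.999), with the KO value close to the floor. Its other probe set read 4.36 in KO embryoid bodies, below the floor, and 4.80 in control embryoid bodies, so the Mmp9 difference rests on 1 probe set. Mmp2, gelatinase A, read 8.46 in KO and 9.21 in control embryoid bodies (-0.75), and its other probe set gave -0.78. Mmp23 read 5.18 in KO and 6.01 in control embryoid bodies (-0.83). The gelatinases and Mmp23 thus lay lower in KO embryoid bodies without reaching the threshold. Mmp14, the membrane-type enzyme that activates proMMP2, read 9.47 in KO and 9.43 in control embryoid bodies (0.03), with -0.19 and 0.72 at its other probe sets. Mmp11 (stromelysin 3), which is activated inside the cell by furin, read 8.17 in KO and 8.41 in control embryoid bodies (-0.24). Mmp17 and Mmp24, other membrane-type enzymes, differed by 0.37 and -0.29. Mmp16 passed the floor in control embryoid bodies alone, at 4.18 in KO and 5.12 in control embryoid bodies.

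**Figure D3:**
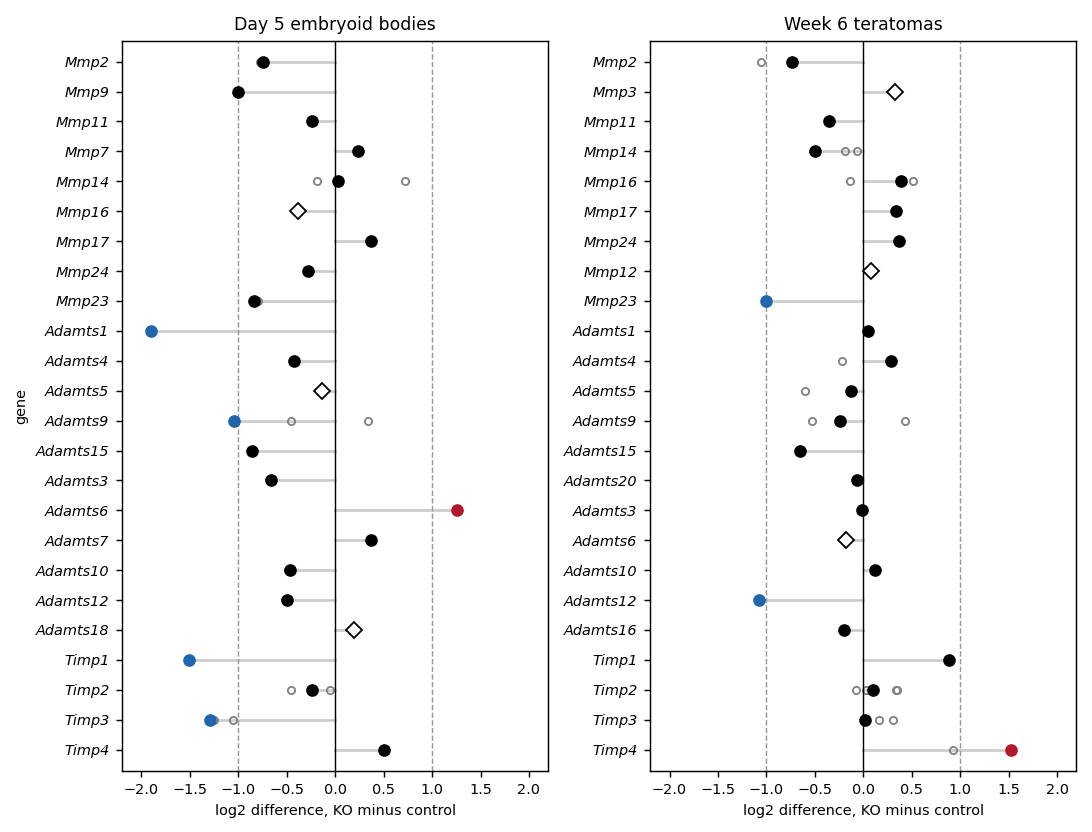
KO minus control log2 differences of the measured genes in embryoid bodies and in teratomas, with filled circles for the probe set used, open circles for other probe sets of the gene and diamonds for bounds; dashed lines mark 2-fold. Adamts1, Timp1, Timp3 and Adamts9 lie at or beyond the lower line in embryoid bodies, and Timp4 lies beyond the upper line in teratomas.

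The promoters of the 4 genes lower in KO embryoid bodies are given because Snai1's known motif, the E-box, was searched in them. They are RefSeq promoters of GRCm38.p6, at chrX:20869916-20870215 (+) for Timp1, chr10:86300162-86300461 (+) for Timp3, chr16:85803064-85803363 (-) for Adamts1 and chr6:92943485-92943784 (-) for Adamts9, with E-box and TATA matches in capitals.
Timp1: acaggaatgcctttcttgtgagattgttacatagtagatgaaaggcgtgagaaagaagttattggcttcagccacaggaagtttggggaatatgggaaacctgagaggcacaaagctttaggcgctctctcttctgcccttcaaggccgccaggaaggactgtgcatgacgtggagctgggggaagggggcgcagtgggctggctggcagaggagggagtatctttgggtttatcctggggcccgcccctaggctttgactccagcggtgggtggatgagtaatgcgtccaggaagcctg
Timp3: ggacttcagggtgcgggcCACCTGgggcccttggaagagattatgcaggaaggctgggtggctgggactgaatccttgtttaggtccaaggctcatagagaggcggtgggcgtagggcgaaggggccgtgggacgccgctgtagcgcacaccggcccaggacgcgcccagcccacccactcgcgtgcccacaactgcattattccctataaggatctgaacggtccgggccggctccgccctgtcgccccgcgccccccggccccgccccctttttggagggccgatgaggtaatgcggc
Adamts1: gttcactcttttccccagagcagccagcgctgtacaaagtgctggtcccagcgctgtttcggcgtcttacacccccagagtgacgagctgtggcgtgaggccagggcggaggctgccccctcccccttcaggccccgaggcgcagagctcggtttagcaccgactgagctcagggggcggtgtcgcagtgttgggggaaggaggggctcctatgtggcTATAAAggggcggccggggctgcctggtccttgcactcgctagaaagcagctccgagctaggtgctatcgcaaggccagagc
Adamts9: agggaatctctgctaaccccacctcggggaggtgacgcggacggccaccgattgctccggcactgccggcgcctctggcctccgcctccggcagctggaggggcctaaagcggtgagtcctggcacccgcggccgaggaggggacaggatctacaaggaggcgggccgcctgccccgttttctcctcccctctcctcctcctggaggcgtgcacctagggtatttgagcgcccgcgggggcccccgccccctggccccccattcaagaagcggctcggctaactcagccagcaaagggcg
Of these 4, Timp3 alone held an E-box, far upstream in its window. Over all members, 6 of 26 promoters had the E-box (23.1%), against 20.2% of all promoters, a share near the background. Outside chromosome 9 the matches were in Timp2, Timp3 and Adamts20.

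Markers of other cells differed between KO and control embryoid bodies together with these genes. Of 10 mesenchymal markers measured, 7 were lower and 0 higher in KO embryoid bodies, with a median difference of -2.44 and a summed linear signal of 1234 in KO and 18573 in control embryoid bodies. Of 8 endothelial markers, 5 were lower and 0 higher, with sums of 647 in KO and 1662 in control embryoid bodies. Markers of parietal and visceral endoderm, of which 3 of 10 were lower and 1 higher, summed to 11983 in KO and 28189 in control embryoid bodies. Of 8 epithelial markers, 2 were higher and 0 lower, and they summed to 27272 in KO and 20779 in control embryoid bodies. All markers of these lists passed the floor in KO embryoid bodies, and their part in the lower Timp1, Timp3, Adamts1 and Adamts9 levels was not tested.

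In week 6 teratomas, the same comparison addresses tissue formed in an animal. Timp4 was higher in KO teratomas, and Mmp23 and Adamts12 were lower. Of 24 genes measured, 1 was higher (4.17%), against 3.25% of all genes, and 2 were lower (8.33%), against 1.07%. The 24 differences divided evenly, 12 above and 12 below 0, around a median of 0.00, while all 12197 genes measured had a median of 0.06. Of the 17 genes above the floor on all 4 arrays, 9 had the same sign in teratomas as in embryoid bodies (52.9%), against 46.6% of all 10434 such genes.

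Timp4 read 8.09 in KO teratomas, against 6.57 in control teratomas (1.52, 2.87-fold higher). Its other probe set read 8.44 in KO teratomas and 7.52 in control teratomas (0.92), the same direction but short of 2-fold. Timp1 read 8.44 in KO teratomas and 7.56 in control teratomas (0.88), the opposite direction to embryoid bodies. Timp2 read 10.53 in KO and 10.43 in control teratomas (0.10), and Timp3 read 10.25 and 10.23 (0.02). The small Timp2 and Timp3 differences turned to -0.01 and -0.10 after quantile normalization, so their direction depends on the scaling. The other Timp3 probe sets above the floor gave 0.17 and 0.31 in teratomas, so none of them showed the lower level seen in KO embryoid bodies.

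**Figure D4:**
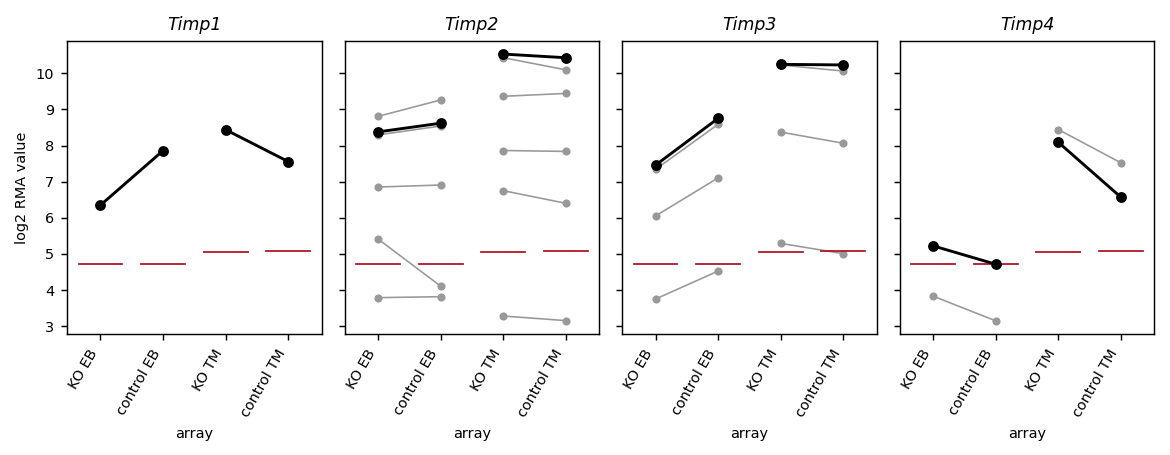
Deposited log2 signal of every probe set of the 4 Timp genes on the 4 arrays, KO left of control, with the used probe set in black, others in grey and the array's floor in red. Timp1 and Timp3 are lower in KO than in control embryoid bodies, and both Timp4 probe sets are higher in KO than in control teratomas.

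Adamts12 read 5.57 in KO teratomas, against 6.65 in control teratomas (-1.08, 2.11-fold lower), and its other probe set was below the floor on all 4 arrays. Mmp23, a membrane-anchored MMP without the usual hemopexin domain, read 5.25 in KO teratomas, against 6.25 in control teratomas (-1.002), which is at the threshold and close to its -0.83 in embryoid bodies, and its other probe set was below the floor in both tumours. Mmp2 also lay lower in both settings, at 8.69 in KO and 9.42 in control teratomas (-0.73), with -1.06 at its other probe set. Adamts15 read 5.35 in KO and 6.00 in control teratomas (-0.65). With the probe set used, Mmp2 and Adamts15 stayed under 2-fold in both settings.

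Adamts1, 3.74-fold lower in KO embryoid bodies, read 7.72 in KO and 7.67 in control teratomas (0.05, and -0.06 after quantile normalization). Adamts9 read 7.41 in KO and 7.65 in control teratomas (-0.24), and Adamts6 was near the floor in both, at 4.85 in KO and 5.22 in control teratomas. None of the 3 ADAMTS genes past 2-fold in embryoid bodies was past it in teratomas, and the difference between the settings was not tested. Mmp14 read 9.77 in KO and 10.27 in control teratomas (-0.50), with -0.06 and -0.18 at its other probe sets. Mmp16 and Mmp24, membrane-type enzymes best known from the nervous system, differed by 0.39 and 0.37, and the other Mmp16 probe sets gave -0.14 and 0.52. Mmp11 read 6.31 in KO and 6.66 in control teratomas (-0.36). With the probe set used, the remaining measured ADAMTS genes lay close to 0, between -0.20 for Adamts16 and 0.29 for Adamts4. Other probe sets gave -0.22 for Adamts4, the opposite sign, and -0.60 for Adamts5. Mmp17 differed by 0.34.

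Cell markers differed between the tumours as well. Of 9 glial and neuronal markers, 6 were higher and 0 lower in KO teratomas, with a summed signal of 15560 in KO and 9919 in control teratomas. Of 11 leukocyte markers measured, 4 were higher and 0 lower, with sums of 4069 in KO and 3028 in control teratomas, and Itgam was below the floor on all 4 arrays. B lineage markers summed to 3049 in KO and 79.0 in control teratomas, with 4 of 5 above the floor in KO teratomas and 1 of 5 in control teratomas. Mesenchymal markers, 2 of 10 lower and 1 higher, summed to 14401 in KO and 21701 in control teratomas. The part of these cells in the higher Timp4 and the lower Adamts12 and Mmp23 was not tested. Of 8 cartilage and bone markers read, Acan, Matn1, Col10a1, Ibsp and Sp7 were below the floor on all arrays, while Col2a1, Sox9 and Col9a1 were above it on all 4.

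Across settings, all 4 inhibitors were higher by 2-fold or more in KO teratomas than in KO embryoid bodies, and 3 of the 4 were in control cells. Timp4 read 8.09 in KO teratomas, against 5.23 in KO embryoid bodies (2.87, 7.29-fold higher), and Timp3 read 10.25 in KO teratomas, against 7.46 in KO embryoid bodies (2.79, 6.91-fold higher). Timp2 was 4.45-fold higher and Timp1 4.25-fold higher. The other Timp3 probe sets above the floor gave 2.89 and 2.32 in KO cells, while those of Timp2 ranged between 0.56 and 2.14. In control cells Timp4 was 3.62-fold, Timp2 3.51-fold and Timp3 2.78-fold higher in teratomas, while Timp1 read 7.56 in control teratomas and 7.86 in control embryoid bodies (-0.30). The other Timp2 probe sets above the floor on both control arrays gave 0.18, 0.93 and 1.56. The probe set at 0.18 read 9.26 in control embryoid bodies, against 8.62 for the one used, so the size of the Timp2 difference depends on the probe set. Timp4 was just above the floor in control embryoid bodies (4.72), and its difference in control cells was a bound of 0.37 with a floor at the 65th percentile. These values come from the same 4 arrays as the KO and control differences above, so they are not separate evidence. Probe sets of 1 gene also differed more across settings, with an SD of 0.65 log2 units in KO cells and 0.66 in control cells.

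Of 28 genes compared in KO cells, 8 were higher in teratomas (28.6%), against 19.8% of all genes, and 4 were lower (14.3%), against 19.8%. Of 25 genes compared in control cells, 6 were higher in teratomas (24.0%), against 16.2% of all genes, and 3 were lower (12.0%), against 19.0%. When each array was instead centred on its median, the median of all genes was -0.46 in KO cells and -0.55 in control cells, and the split of all genes was 2036 higher and 3786 lower in KO cells, where it had been 2566 and 2564, and 1533 higher and 4100 lower in control cells, where it had been 2098 and 2456. The 37 genes then gave 7 higher and 5 lower in KO cells and 5 higher and 7 lower in control cells.

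Among the enzymes, Mmp16 read 7.47 in KO teratomas, against 4.18 in KO embryoid bodies (at least 6.69-fold higher), and 7.09 in control teratomas, against 5.12 in control embryoid bodies (3.92-fold higher). Mmp24 read 6.64 in KO teratomas, against 5.12 in KO embryoid bodies (1.52), and 6.28 in control teratomas, against 5.41 in control embryoid bodies (0.87). Its other probe sets were below the floor on all 4 arrays, so the Mmp24 call in KO cells rests on the probe set used. The KO difference was not measured with the mean of all probe sets and was a bound of 0.40 with a floor at the 65th percentile. Adamts20, a relative of Adamts9 needed in mice for the spread of pigment cells, read 6.05 in KO teratomas, against 2.86 in KO embryoid bodies (at least 2.50-fold higher), and 6.12 in control teratomas, against 3.60 in control embryoid bodies (at least 2.65-fold higher). Mmp16, Mmp24 and Adamts20 were each above the floor in both tumours. Adamts5 was at least 2.38-fold higher in KO teratomas than in KO embryoid bodies and 2.35-fold higher in control teratomas than in control embryoid bodies, but was under 2-fold after centring (0.94 and 0.86).

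Mmp11 was lower in teratomas, at 6.31 in KO teratomas, against 8.17 in KO embryoid bodies (-1.86, 3.64-fold lower), and 6.66 in control teratomas, against 8.41 in control embryoid bodies (-1.75, 3.36-fold lower). Adamts9 was lower too, at 7.41 in KO teratomas, against 8.52 in KO embryoid bodies (-1.12), and 7.65 in control teratomas, against 9.57 in control embryoid bodies (-1.92). Its other probe sets gave -1.61 and 0.97 in KO cells and -0.75 and 0.09 in control cells, so they differ in direction. Adamts1 differed in direction between genotypes, with 7.72 in KO teratomas, against 7.04 in KO embryoid bodies (0.68), and 7.67 in control teratomas, against 8.94 in control embryoid bodies (-1.27, 2.41-fold lower). The Adamts1 levels of both tumours lay between those of KO and control embryoid bodies. Adamts6 and Adamts7 were lower in KO teratomas than in KO embryoid bodies, by at least 2.02-fold for Adamts6 and at least 2.08-fold for Adamts7. Glial and neuronal markers summed to 15560 in KO teratomas, against 187 in KO embryoid bodies, and 9919 in control teratomas, against 169 in control embryoid bodies. Mesenchymal markers summed to 14401 in KO teratomas, against 1234 in KO embryoid bodies, and 21701 in control teratomas, against 18573 in control embryoid bodies. In KO cells 8 of 10 mesenchymal, 10 of 11 leukocyte, 5 of 8 endothelial and 9 of 9 glial and neuronal markers measured were higher in teratomas. Lower there were 8 of 8 epithelial, 1 of 10 mesenchymal and 1 of 8 endothelial markers. In control cells the counts higher were 3 of 10 mesenchymal, 7 of 8 leukocyte, 1 of 8 endothelial and 9 of 9 glial and neuronal markers. Lower there were 5 of 8 epithelial, 3 of 10 mesenchymal and 1 of 8 endothelial markers, so the mesenchymal and endothelial lists split evenly in control cells. Of all genes, 19.8% were higher and 19.8% lower in KO cells, and 16.2% higher and 19.0% lower in control cells. The part of these cells in the teratoma levels was not tested.

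Other genes that govern the enzymes were read from a list of 19, of which 17 were on the array. In embryoid bodies 2 of 13 measured were higher and 4 lower in KO (median -0.69), and in teratomas 4 of 14 were higher and 1 lower (median 0.36). Beside this list and those below, 2.18% of all genes were higher and 3.98% lower in KO embryoid bodies. In KO teratomas 3.25% of all genes were higher and 1.07% lower. Pcsk5, a convertase that cuts proproteins, read 6.25 in KO and 8.50 in control embryoid bodies (-2.26), and Plg, the precursor of plasmin, read 5.59 in KO and 7.40 in control embryoid bodies (-1.81). Plaur, the urokinase receptor, read 7.52 in KO and 6.28 in control embryoid bodies (1.25). In teratomas, A2m, a broad protease trap, read 9.86 in KO and 8.53 in control teratomas (1.33). Spock2, a testican of the nervous system, read 8.75 in KO and 7.39 in control teratomas (1.36).

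Of 26 other matrix proteases listed, 1 of 15 measured was lower and 0 higher in KO embryoid bodies, and 2 of 17 were lower and 1 higher in KO teratomas. Adam12, a membrane protease of mesenchyme, was lower in both settings, at 6.90 in KO and 8.63 in control embryoid bodies (-1.74) and at 5.57 in KO and 6.64 in control teratomas (-1.08). Fap, a protease of activated fibroblasts, read 4.75 in KO teratomas, against 6.99 in control teratomas (at least 3.85-fold lower). Ctss, a cathepsin of macrophages and other antigen-presenting cells, was the 1 gene higher, at 10.71 in KO and 8.26 in control teratomas (2.44, 5.44-fold higher). Pcolce, which enhances procollagen cutting by BMP1, was lower in both settings, at 6.19 in KO and 8.59 in control embryoid bodies (-2.40) and at 6.84 in KO and 8.10 in control teratomas (-1.26). It was the 1 gene past 2-fold among the ADAMTS-like and procollagen processing proteins, of which 6 were measured in embryoid bodies and 5 in teratomas. Matrix substrates of the enzymes were lower in 6 and higher in 1 of 17 measured in KO embryoid bodies (median -0.89), and lower in 3 and higher in 0 of 18 in KO teratomas (median -0.35). The genes lower in KO embryoid bodies included 5 fibrillar collagen genes, Col3a1 (-5.79), Col5a2 (-4.93), Col1a2 (-3.71), Col1a1 (-2.96) and Col5a1 (-2.02). The 1 gene higher was also a fibrillar collagen gene, Col2a1, at 8.35 in KO and 6.68 in control embryoid bodies (1.67, 3.19-fold higher). The genes lower in KO teratomas were Col5a1 (-1.31), Col1a1 (-1.20) and Col5a2 (-1.17).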

How the data were processed

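Total RNA of 4 samples was measured on 1 Affymetrix array each. The authors deposited 1 table of log2 values, made with affy and RMA per the submitters' processing notes, with versions not given in the sources used here and with no statement that the arrays were normalized together. Its 45101 probe sets include 64 controls, which were left out, and 0 columns lacked a sample. Probe sets with 1 gene in the platform annotation were kept, and all 70 member probe sets had symbols found in RefSeq. Each gene was read by its brightest probe set, values under the array's 50th percentile were set to it, and differences of 1 log2 unit or more were counted. RMA shrinks dim signals toward each other, so differences near the floor are understated. The number of arrays limits the precision: with 1 per group no p-value can be given. Every member could be named, and of each other list up to 6 genes with the greatest differences (3 of a marker list). The members and lists were chosen with earlier results of these data known. Alternatives changed the probe set rule, the floor, the scaling and the threshold. Python 3.11.15, pandas 2.3.3, numpy 2.4.6 and matplotlib 3.10.9 were used.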

Additional observations from a re-analysis of the deposited data

Results flagged for a closer look

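For 8 genes above the floor on all 4 arrays, the KO minus control difference had one sign in teratomas and the other in embryoid bodies. With 1 array per group the difference between the settings was not tested, and both comparisons rest on those single arrays. The teratoma difference minus the embryoid body difference, in log2 units, was 2.39 for Timp1 (0.88 and -1.51), 1.95 for Adamts1 (0.05 and -1.90) and 1.31 for Timp3 (0.02 and -1.30). It was 0.72 for Adamts4 (0.29 and -0.43), 0.65 for Mmp24 (0.37 and -0.29), 0.59 for Adamts10 (0.12 and -0.47), 0.34 for Timp2 (0.10 and -0.24) and -0.53 for Mmp14 (-0.50 and 0.03). The other Adamts4 probe set gave -0.22 in teratomas and was below the floor in both embryoid body arrays, so the Adamts4 sign in teratomas depends on the probe set. After quantile normalization the teratoma differences of Adamts1, Timp2 and Timp3 were below 0 (-0.06, -0.01 and -0.10), so these 3 genes then had the same sign in both settings. Of the 8, only Timp1 moved by more than 0.5 log2 units in both settings with the probe set used. Among all 10434 genes above the floor on every array, 46.6% had the same sign in both settings, so opposite signs were common.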

How the results depend on the processing

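Of 634 member differences recomputed under the 7 alternatives that change a value (the other 2 change the threshold), 592 stayed within 1 SD between probe sets of the main value, 42 moved further and 0 called values changed sign. The 634 leave out differences that an alternative left unmeasured, and those measured only under an alternative. The 592 are therefore not a share of all main differences. The floors cannot change a difference between values above every floor, and the probe set rules cannot change the value of a gene with 1 probe set. Many of the 592 were thus fixed in advance and do not measure robustness. The SD was also wider across settings (0.65 in KO cells and 0.66 in control cells), so fewer values there counted as moved. Adamts1, Timp1 and Timp3 in embryoid bodies and Timp4 in teratomas stayed past 2-fold under all 7 alternatives. For Adamts1 and Timp1, each read by 1 probe set well above the floor, only the scalings could change the value, to -1.84 and -1.93 for Adamts1 and -1.39 and -1.53 for Timp1. Adamts9 was -0.39, and Adamts6 a bound of 0.08, with the mean of all probe sets, and Adamts6 was not measured with a floor at the 65th percentile. In teratomas Adamts12 was a bound of -0.20 with that floor and not measured with the mean, and Mmp23 was a bound of -0.51 with the mean and -0.96 after centring. With the mean, the counts became 0 higher in embryoid bodies, 0 lower in teratomas and 2 lower in KO teratomas against KO embryoid bodies. With the 65th percentile floor they were 0 higher in embryoid bodies, 0 lower in teratomas, 5 higher and 2 lower across settings in KO cells and 2 higher in control cells. Over all genes that floor left 169 higher and 310 lower in embryoid bodies (268 and 489 otherwise), 262 and 76 in teratomas (397 and 131) and 1400 higher in control teratomas against control embryoid bodies (2098). Across settings in KO cells it left 1854 higher and 2007 lower of 10714 (2566 and 2564 of 12936 otherwise). With the mean, the counts over all genes were 224 higher in embryoid bodies, 86 lower in teratomas and 2108 lower across settings in KO cells. Quantile normalization gave 374 and 206 in teratomas over all genes, and 7 members lower across settings in control cells, where 2358 of all 12955 genes were lower. Centring gave 1 member lower in teratomas (120 of all genes) and 7 lower across settings in control cells (4100 of all genes). Mmp9 passed 2-fold in embryoid bodies under both scalings (-1.01 and -1.02) but was a bound of -0.56 with the mean, and Mmp2 did in teratomas without probe sets marked as sharing sequence (-1.06). At 1.5-fold, 9 members were lower in embryoid bodies, 2 higher and 4 lower in teratomas, and 10 higher and 7 lower across settings in control cells. Over all genes the same threshold gave 1024 lower of 12282, 1256 higher and 616 lower of 12197, and 3030 higher and 4324 lower of 12956. At 4-fold, 5 were higher across settings in KO cells, namely Mmp16 and Timp1 to Timp4, and the counts were 0 lower in KO cells, 0 and 0 in control cells, 0 and 0 in embryoid bodies and 0 and 0 in teratomas. Over all genes, 4-fold counts of higher and lower genes were 1272 and 538 in KO cells, 966 and 424 in control cells, 26 and 124 in embryoid bodies and 35 and 14 in teratomas. No paired analysis was possible because each group has 1 array. The depth of an array is its signal over background: 13 of 37 members could not be compared in embryoid bodies, and 13 could not in teratomas.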
